A study of Mus musculus with 6 samples.

Results

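The genes described here are 34 markers of macrophages and other leukocytes, followed in the palatal shelves of mouse embryos at E14.5, when these outgrowths of the upper jaw build the secondary palate. They were taken by symbol from a list for macrophages, all leukocytes, neutrophils and lymphocytes that was drawn up with earlier results of these data known, and all 34 had a row among the 55631 genes of the expression table. There were 3 KO libraries, from embryos with the genotype p130Casfl/fl; CAG-Cre, in which a broadly active promoter drives the recombinase Cre. There were 3 control libraries, from p130Casfl/fl embryos, whose titles call them WT although they carry the loxP-flanked alleles too. Expression was given as FPKM, fragments scaled to gene length and to library size, so levels of different genes can be set side by side. The series asks which transcripts differ when the adaptor protein p130Cas is lost.

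Leukocytes are the white cells of blood and tissue, and nearly all carry the phosphatase CD45, encoded by Ptprc. In embryonic tissue the most common leukocytes are macrophages, which arise from the yolk sac and fetal liver, need the growth factor receptor encoded by Csf1r, and take up dying cells. They sense their surroundings through surface receptors that signal over the adaptors Tyrobp and Fcer1g, and they secrete lysozyme and the complement protein C1q. Neutrophils and lymphocytes appear later and are made in the fetal liver and thymus.

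The libraries were set against their labels first. Bcar1, which encodes p130Cas, measured 1.69, 1.69 and 1.31 FPKM in KO and 1.80, 1.97 and 2.09 FPKM in control replicates. Every KO value was below every control value, but the log2 fold change of -0.21, with an SE of 0.11, was not past the threshold (adjusted p = 1.00 in limma), and the value covers the whole gene, not a deleted stretch alone. The palatal transcription factors Shox2, between 30.7 and 44.4 FPKM, and Barx1, between 129 and 171 FPKM, were expressed in every library. KO replicate 2 stood apart, since it alone had Xist, the transcript of the inactive X chromosome, above 0, at 61.0 FPKM, and it alone was listed at 0 for the Y-linked gene Ddx3y, which was between 15.2 and 18.8 FPKM elsewhere. Litters are not given in the labels, and p-values therefore cover the spread between these samples only. In KO this spread includes a library that differs in these sex-linked genes, and elsewhere it may be technical.

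Macrophage genes were expressed in both groups, lymphocyte genes were at or near the lower limit of the table, and most macrophage genes had higher values in KO shelves without passing the test across all genes. C1qb, a chain of C1q, measured 18.6, 24.8 and 16.2 FPKM in the KO libraries and 9.09, 10.8 and 15 FPKM in the controls, in the order of replicates 1 to 3 used throughout. Of the 34 genes, 25 reached a mean of 1 FPKM over the 6 libraries and were tested, among the 14714 genes of the table that did so. None passed in limma at an adjusted p under 0.05, in either direction, where 0.326% of all tested genes passed higher and 0.00680% lower in KO. At an unadjusted p under 0.05 there were 16 members higher in KO and 0 lower, against 2.09% and 1.92% of all tested genes. All 3 KO values lay above all 3 control values for 16 of the 25, against 3.27% of all tested genes, and for 0 the groups were separate the other way, against 5.79%. The 16 include Ms4a7, with a control mean of 0.711 FPKM, which reached a mean of 1 FPKM only through its KO values. The log2 fold change of FPKM + 1 was above 0 for 23 of the 25, against 40.6% of all tested genes, and the median was 0.42, beside -0.02 over all tested genes. In bulk tissue a larger number of cells of a type and more RNA per cell cannot be told apart.

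The values below the filter belonged to 9 genes. Of these, Ptprc, Itgam and Itgb2 were above 0 in every library and had all KO values above all control values, which held for 3.56% of the 25387 genes above 0 in at least 1 library. Cd14, the co-receptor for bacterial lipopolysaccharide, and Cd79a overlapped between groups. Mpo and Elane were listed at 0 in some libraries, and Cd163 and Cd3e in all of them. The smallest value above 0 in a library was between 0.1001 and 0.1177 FPKM, so a gene listed at 0 may lie anywhere below that.

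**Figure D1:**
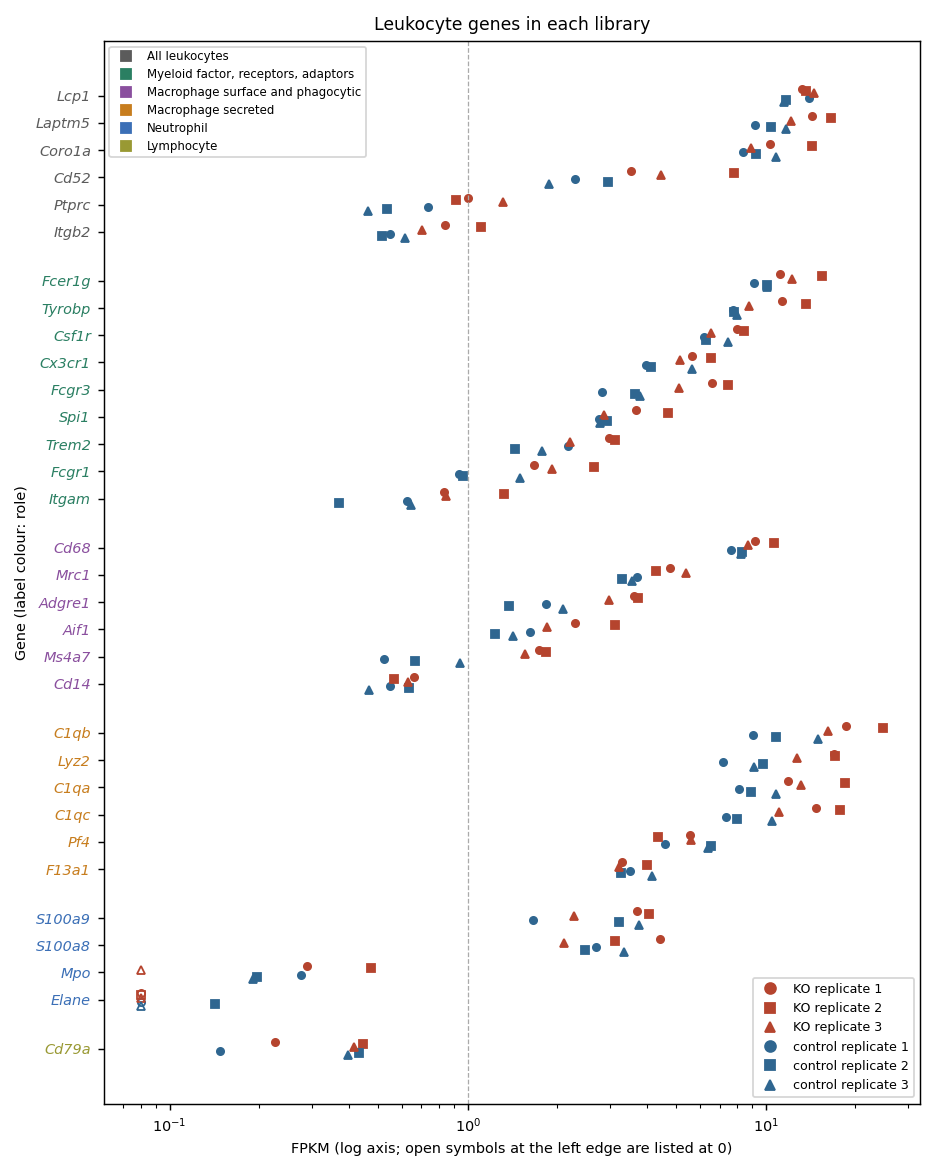
FPKM of each leukocyte gene (log axis), with KO symbols above control symbols in each row and 1 symbol shape per replicate number; the dashed line marks 1 FPKM, open symbols are listed at 0, and Cd163 and Cd3e, at 0 in all 6 libraries, are not drawn. Most macrophage genes lie between 1 and 24.8 FPKM, with KO symbols to the right for most of them, while Mpo, Elane and Cd79a stay under 0.5 FPKM.

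Promoter sequences from RefSeq on GRCm38.p6, from 250 bases before to 50 after a start site, were held for 26 of the 34 genes, at 32 start sites. They were searched on both strands for GAGGAA, the core of the site of PU.1, the myeloid transcription factor encoded by the member Spi1, and for GAAANNGAA, a spaced repeat of the kind that interferon regulatory factors bind. Neither motif contains the other, and matches may overlap by their shared GAA. The PU.1 core was found at 21 of the 32 start sites, in 19 genes, and in 28.3% of 32851 promoters of that length. The spaced repeat was found at 3 of the 32 start sites, in 2 genes, and in 8.56% of all promoters. A match is a string of letters and not a measured binding site. The promoters given are those of the 3 tested genes with the highest fold change among those with a PU.1 core, and of the 2 tested genes that hold both motifs. Capitals mark the matches, which appear as the reverse complement where they lie on the other strand, as TTCCTC for the PU.1 core. All 5 lie on the minus strand and are written 5′ to 3′ in the direction of the gene, Fcgr3 at chr1:171059345-171059644, C1qb at chr4:136886151-136886450, C1qc at chr4:136892865-136893164, Ms4a7 at chr19:11336097-11336396 and Aif1 at chr17:35176003-35176302.
Fcgr3: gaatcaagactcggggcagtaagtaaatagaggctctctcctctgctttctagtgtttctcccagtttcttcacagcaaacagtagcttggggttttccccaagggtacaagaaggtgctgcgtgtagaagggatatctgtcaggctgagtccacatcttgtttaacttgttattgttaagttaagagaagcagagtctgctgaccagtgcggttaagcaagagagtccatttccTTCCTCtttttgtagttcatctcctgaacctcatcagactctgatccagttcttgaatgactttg
C1qb: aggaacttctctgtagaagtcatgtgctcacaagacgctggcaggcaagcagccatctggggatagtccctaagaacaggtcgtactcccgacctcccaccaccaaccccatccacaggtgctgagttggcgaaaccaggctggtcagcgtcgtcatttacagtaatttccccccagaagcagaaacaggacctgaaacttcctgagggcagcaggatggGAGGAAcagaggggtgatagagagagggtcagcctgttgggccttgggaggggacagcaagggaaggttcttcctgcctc
C1qc: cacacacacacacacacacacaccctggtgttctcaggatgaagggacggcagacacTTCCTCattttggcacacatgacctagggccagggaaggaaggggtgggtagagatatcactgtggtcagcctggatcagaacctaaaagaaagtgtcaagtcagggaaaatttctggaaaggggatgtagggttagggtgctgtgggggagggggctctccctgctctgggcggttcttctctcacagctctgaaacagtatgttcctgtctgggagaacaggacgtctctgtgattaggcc
Ms4a7: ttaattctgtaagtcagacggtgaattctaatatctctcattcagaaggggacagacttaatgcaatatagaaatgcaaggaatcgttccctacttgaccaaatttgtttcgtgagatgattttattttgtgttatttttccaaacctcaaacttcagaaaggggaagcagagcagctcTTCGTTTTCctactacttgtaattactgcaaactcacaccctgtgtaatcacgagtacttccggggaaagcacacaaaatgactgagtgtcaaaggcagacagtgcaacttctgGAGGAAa
Aif1: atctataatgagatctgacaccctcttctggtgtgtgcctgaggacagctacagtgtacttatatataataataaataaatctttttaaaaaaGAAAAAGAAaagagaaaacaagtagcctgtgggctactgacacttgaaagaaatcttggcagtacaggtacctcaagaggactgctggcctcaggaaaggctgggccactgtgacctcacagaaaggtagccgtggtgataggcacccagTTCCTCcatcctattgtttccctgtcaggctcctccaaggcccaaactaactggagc

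Of the 6 genes of all leukocytes, tested or not, 4 had every KO value above every control value, and the 2 that bind actin overlapped. Such separation held for 3.56% of the 25387 genes above 0 in at least 1 library. Ptprc, which encodes CD45, stood at 1.00, 0.916 and 1.31 FPKM in KO and 0.736, 0.538 and 0.464 FPKM in control replicates, too low for the test. Laptm5, a lysosomal membrane protein of blood cells, stood at 14.3, 16.6 and 12.2 FPKM in KO and 9.20, 10.4 and 11.7 FPKM in control replicates. For both genes the groups did not overlap. Cd52, a small surface glycoprotein, stood at 3.54, 7.80 and 4.47 FPKM in KO and 2.30, 2.95 and 1.87 FPKM in control replicates. It had the highest fold change of the 25 tested members, a log2 fold change of 0.85, with an SE of 0.24 (adjusted p = 0.786 in limma), and its highest value came from KO replicate 2. Without that library its log2 fold change was 0.57, below the 0.70 of Lyz2, and with a pseudocount of 0.1 it was 1.06, below the 1.19 of Ms4a7. Lcp1 and Coro1a, which bind actin filaments, overlapped between groups, and averaged 13.8 ± 0.678 and 11.2 ± 2.76 FPKM in KO and 12.4 ± 1.38 and 9.49 ± 1.18 FPKM in control libraries (SD, n = 3 each). Itgb2, the integrin chain shared by leukocytes, averaged 0.884 ± 0.207 FPKM in KO and 0.561 ± 0.0501 FPKM in control libraries, with no overlap.

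Of the 9 myeloid genes for receptors, adaptors and the factor PU.1, tested or not, 6 had every KO value above every control value and 3 overlapped. Among genes above 0 in at least 1 library, 3.56% had every KO value above every control value. Fcgr3, a low-affinity receptor for antibody, stood at 6.59, 7.47 and 5.13 FPKM in KO and 2.83, 3.64 and 3.79 FPKM in control replicates. Every KO library was above every control library, with a log2 fold change of 0.74, with an SE of 0.14 (adjusted p = 0.189 in limma). Fcgr1, the high-affinity receptor for antibody, stood at 1.67, 2.65 and 1.92 FPKM in KO and 0.935, 0.967 and 1.5 FPKM in control replicates, also without overlap. Csf1r, the receptor that macrophages need to survive, stood at 7.99, 8.47 and 6.55 FPKM in KO and 6.23, 6.30 and 7.47 FPKM in control replicates. Its groups overlapped, and the log2 fold change was 0.17, with an SE of 0.11 (adjusted p = 1.00 in limma). Spi1, which encodes PU.1, stood at 3.66, 4.70 and 2.86 FPKM in KO and 2.76, 2.94 and 2.77 FPKM in control replicates, so that KO replicate 3 lay among the controls. Cx3cr1, the receptor for the chemokine fractalkine, overlapped too, at 5.78 ± 0.712 FPKM in KO and 4.59 ± 0.943 FPKM in control libraries (SD, n = 3 each). Tyrobp and Fcer1g, the adaptors that carry the signal of such receptors, averaged 11.2 ± 2.40 and 13 ± 2.19 FPKM in KO and 7.86 ± 0.125 and 9.77 ± 0.562 FPKM in control libraries, without overlap. Trem2, a lipid receptor that signals through Tyrobp, averaged 2.77 ± 0.496 FPKM in KO and 1.80 ± 0.366 FPKM in control libraries, and Itgam, the integrin CD11b, 0.998 ± 0.277 and 0.547 ± 0.153 FPKM, both without overlap.

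Of the 7 macrophage surface genes, the 5 that were tested had every KO value above every control value, against 3.27% of all tested genes. Cd14, too low for the test, overlapped between groups, at 0.618 ± 0.0481 FPKM in KO and 0.551 ± 0.0841 FPKM in control libraries. Adgre1, which encodes a classical surface antigen of mouse macrophages, stood at 3.62, 3.74 and 2.98 FPKM in KO and 1.83, 1.38 and 2.09 FPKM in control replicates, a log2 fold change of 0.69, with an SE of 0.13 (adjusted p = 0.160 in limma). Ms4a7, a membrane protein of tissue macrophages, stood at 1.74, 1.83 and 1.56 FPKM in KO and 0.523, 0.666 and 0.945 FPKM in control replicates. Its KO mean was 2.40 times its control mean, the highest ratio among the tested members, and its log2 fold change was 0.67, with an SE of 0.12 (adjusted p = 0.156 in limma). Its control mean of 0.711 FPKM was below 1 FPKM, so it entered the test only through its KO values. Genes of the Ms4a and Fc receptor families have close relatives, so the split of reads between them is uncertain. Aif1, which encodes the calcium-binding protein Iba1, averaged 2.42 ± 0.641 FPKM in KO and 1.43 ± 0.191 FPKM in control libraries (SD, n = 3 each). Mrc1, the mannose receptor, stood at 4.78, 4.29 and 5.41 FPKM in KO and 3.69, 3.29 and 3.57 FPKM in control replicates, and here KO replicate 3 was the highest. Cd68, a lysosomal glycoprotein of phagocytes, had the smallest difference among these, with 9.55 ± 1.06 FPKM in KO and 8.09 ± 0.371 FPKM in control libraries. Cd163, a receptor for haptoglobin-bound haemoglobin, was listed at 0 in all 6 libraries.

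The secreted products split into a set with higher values in KO and a set without. The chains of C1q are encoded side by side on chromosome 4 of GRCm38, in the order C1qb, C1qc and C1qa from 136880129 to 136898803, all on the minus strand. C1qa stood at 11.9, 18.4 and 13.1 FPKM in KO and 8.13, 8.94 and 10.8 FPKM in control replicates. C1qc stood at 14.7, 17.8 and 11.1 FPKM in KO and 7.36, 8.02 and 10.5 FPKM in control replicates. Summed, the 3 chains reached 48.8 ± 10.8 FPKM in KO and 29.6 ± 6.09 FPKM in control libraries (SD, n = 3 each), and the order of the libraries was the same for each chain in control but not in KO shelves. None of the chains passed in limma (adjusted p = 0.821 for C1qa, 0.703 for C1qb and 0.637 for C1qc). Lyz2, the lysozyme of macrophages, stood at 17.0, 17.1 and 12.7 FPKM in KO and 7.21, 9.81 and 9.17 FPKM in control replicates, and its near-identical neighbour Lyz1 makes the split of reads uncertain. Its log2 fold change of 0.77, with an SE of 0.14, had the smallest p of the members (adjusted p = 0.152 in limma). F13a1, a clotting factor subunit that platelets also carry, averaged 3.50 ± 0.424 FPKM in KO and 3.65 ± 0.470 FPKM in control libraries. Pf4, a chemokine of platelets and of some macrophages, averaged 5.18 ± 0.719 FPKM in KO and 5.84 ± 1.09 FPKM in control libraries. Both overlapped between groups and were the only tested members with a fold change below 0, which for F13a1 turned to 0.03 without control replicate 3. Of 10 genes of megakaryocytes and platelets, 1 was tested and 0 passed, and their summed level ran from 3.90 to 6.26 FPKM in KO and from 3.31 to 5.39 FPKM in control libraries.

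**Figure D2:**
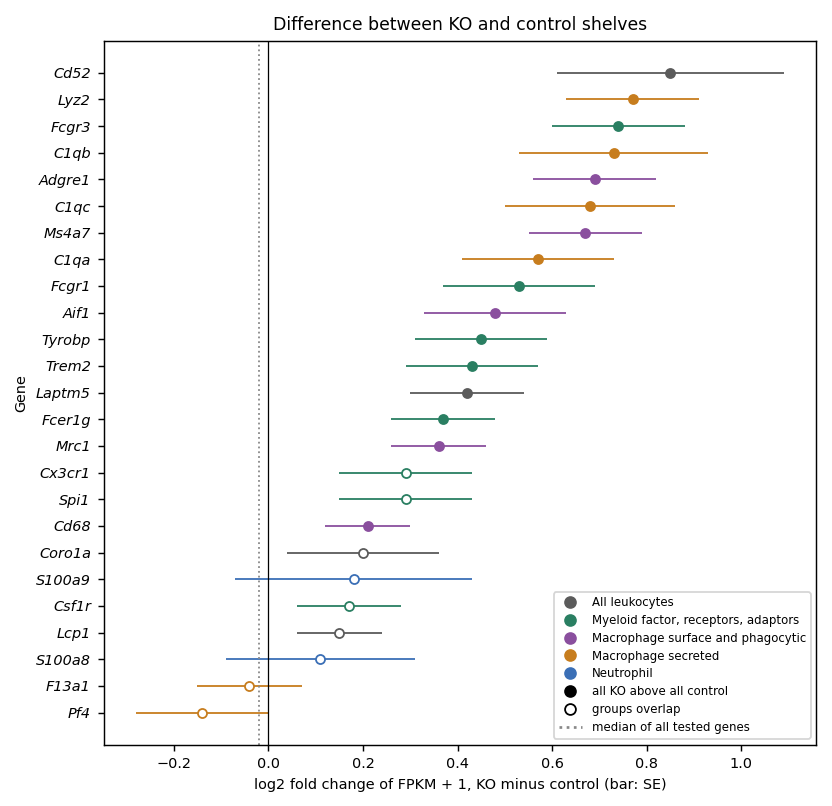
Log2 fold change of FPKM + 1, KO minus control, for the 25 tested genes (bar: SE; colour: role; filled: all KO above all control; open: groups overlap; dotted line: median of all tested genes, -0.02). Cd52, Lyz2, Fcgr3 and C1qb lie at 0.85, 0.77, 0.74 and 0.73, while Csf1r, Lcp1, F13a1 and Pf4 lie between -0.14 and 0.17 with open symbols.

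Neutrophil genes overlapped between groups, and lymphocyte genes were under 0.5 FPKM or at 0. S100a8 and S100a9, which form the calcium-binding protein calprotectin, stood at 4.43, 3.13 and 2.11 FPKM and at 3.69, 4.06 and 2.28 FPKM in KO replicates. In control replicates they stood at 2.69, 2.47 and 3.35 FPKM and at 1.66, 3.21 and 3.77 FPKM. The groups overlapped, and the sign of the fold change turned for S100a8 without KO replicate 1, at -0.09, and for S100a9 without control replicate 1, at -0.07. Mpo, the peroxidase of neutrophil granules, was listed at 0 in KO replicate 3 and stood between 0.191 and 0.475 FPKM in the other 5 libraries. Elane, the elastase of the same granules, was above 0 only in control replicate 2, at 0.142 FPKM. Cd3e, part of the T cell receptor complex, was listed at 0 throughout. Cd79a, part of the B cell receptor, stood at 0.226, 0.444 and 0.416 FPKM in KO and 0.148, 0.431 and 0.396 FPKM in control replicates.

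The size of the difference varied from gene to gene. The ratio of the KO mean to the control mean had a median of 1.38 over the 25 tested members, and of 1.43 over the 23 that are not neutrophil genes. It ran from 0.886 for Pf4 to 2.40 for Ms4a7, beside a median of 0.985 over all tested genes. It was at least 1.5 for 11 of the 25, against 1.52% of all tested genes. To follow this within each library, levels were divided by that of Csf1r, a comparison chosen after the values had been seen that does not depend on how libraries are scaled. For 11 of the 24 other tested members, all KO ratios lay above all control ratios, against 0.912% of all tested genes above 0 throughout. These ratios reuse the levels given above, and the log2 fold change of Csf1r itself, 0.17, was among the smaller ones of the members. A member with a larger fold change therefore tends to stay higher in the ratio. Division by Csf1r, which was itself higher on average in KO, also lowers the ratios of all other genes in KO. The share over all tested genes was 3.27% for undivided levels, so 0.912% is not a neutral background for the 11. Ms4a7, which met the filter only through its KO values, stood at 0.217, 0.216 and 0.238 times Csf1r in KO and 0.0839, 0.106 and 0.127 times in control replicates. Fcgr3 stood at 0.825, 0.881 and 0.782 times Csf1r in KO and 0.455, 0.578 and 0.508 times in control replicates, and Adgre1 at 0.453, 0.442 and 0.454 times and 0.293, 0.219 and 0.281 times. The others were Lyz2, Fcgr1, Aif1, Tyrobp, Laptm5, C1qa, C1qb and C1qc. The ratio of Cd68 to Csf1r averaged 1.25 in KO and 1.22 in control libraries, with overlap, and that of F13a1 averaged 0.458 and 0.546, with all KO ratios below all control ratios. The exact two-sided permutation test cannot go below p = 0.1 with 3 libraries against 3, and gave 0.1 for the levels of each of the 16 members without overlap.

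The libraries of a group differed from each other in most members at once. Of the 23 tested genes of macrophages and all leukocytes, KO replicate 2 was the highest KO library for 20 and KO replicate 3 the lowest for 16. Control replicate 3 was the highest control library for 14 and control replicate 1 the lowest for 16. The median distance of the 25 tested members from their control mean was 0.36, 0.61 and 0.22 (log2) in KO and -0.09, -0.04 and 0.15 in control replicates. Without KO replicate 2 the median log2 fold change was 0.32, and 16 of the 25 had no overlap, against 9.79% of all tested genes.

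Levels of other cell types are given beside these. All KO values lay above all control values for 20 of 20 genes of the interferon response. Such separation held for 3.56% of the genes above 0 in at least 1 library. Of the 20 interferon genes, 5 were not tested and 4 were listed at 0 in some libraries. In limma 12 of the 15 tested rose, against 0.326% of all tested genes. Isg15, a ubiquitin-like protein, was highest among KO libraries in KO replicate 2, at 36.9 FPKM, against 22.4 FPKM in KO replicate 1 and 24.7 FPKM in KO replicate 3, and was between 0.959 and 1.15 FPKM in controls. Their summed level was 136, 185 and 172 FPKM in KO and 30.7, 26.8 and 30.0 FPKM in control replicates, so KO replicate 3 was among the high libraries for this list and the lowest KO library for macrophage genes. Erythroid genes summed to 17600, 40500 and 21400 FPKM in KO and 25800, 34000 and 17900 FPKM in control replicates. All 10 tested erythroid genes overlapped between groups, and 3 were higher at an unadjusted p under 0.05 in limma, against 2.09% of all tested genes. These were the embryonic globin genes Hbb-y, Hbb-bh1 and Hba-x, with log2 fold changes of 0.87, 0.85 and 0.69, and 0 passed after adjustment. Of the 10, 5 had a fold change below 0, so the sums do not show this split. Endothelial genes summed to 155, 128 and 154 FPKM in KO and 160, 166 and 182 FPKM in control replicates, with every KO sum below every control sum. All 10 endothelial genes had a fold change below 0, and 5 had all KO below all control values, against 5.79% of all tested genes. At an unadjusted p under 0.05 in limma 4 were lower, against 1.92% of all tested genes, and 0 passed after adjustment. KO replicate 2 thus had the highest macrophage, interferon and erythroid sums, the lowest endothelial sum, and differed in Xist and Ddx3y. The part of each of these in the leukocyte values was not tested.

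**Figure D3:**
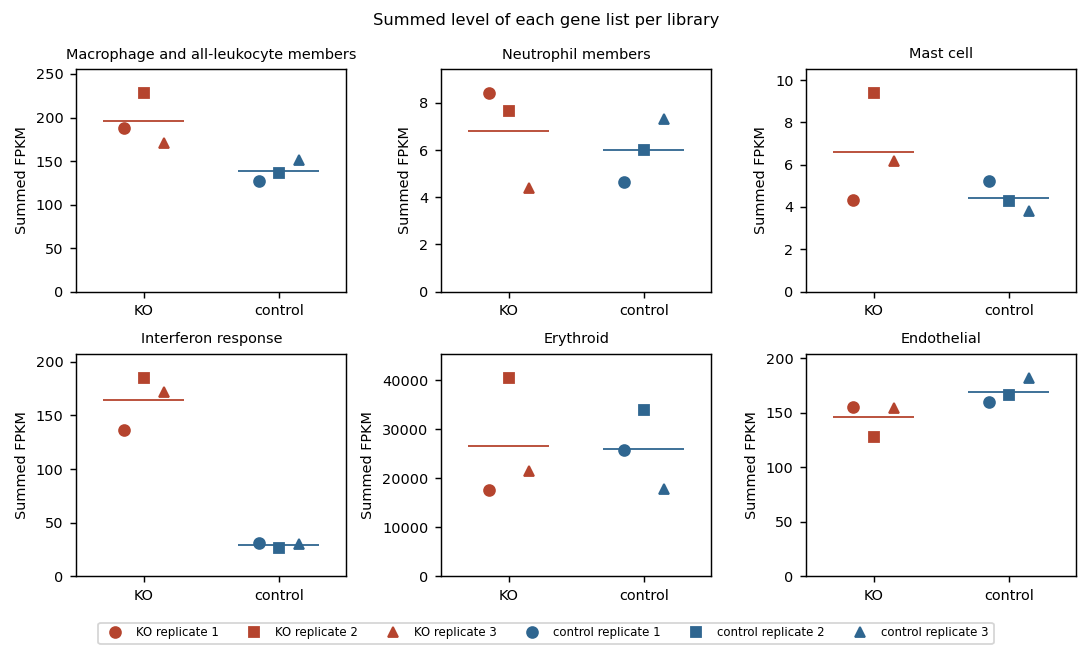
Summed FPKM of 6 gene lists in each library, KO left of control (symbol shape: replicate number; line: group mean; axes start at 0). Macrophage and all-leukocyte members sum to between 171 and 228 FPKM in KO and between 127 and 151 FPKM in control libraries, the interferon response sums are separate by a wider margin, and the neutrophil, mast cell and erythroid sums overlap between groups.

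Genes of the same cells outside the 34 were read from 16 further lists. Of 162 such genes with a row, 74 were tested, and in limma 1 rose and 0 fell, against 0.326% and 0.00680% of all tested genes. At an unadjusted p under 0.05, 18 were higher and 0 lower, against 2.09% and 1.92%. All KO values lay above all control values for 24, against 3.27%, and below them for 1, the class II gene H2-Ab1, against 5.79%. The median log2 fold change of the 74 was 0.13. Among the 24, Lilrb4a, Ccl12, Ccl9 and Slc11a1 had control means below 1 FPKM and met the filter only through their KO values. Lilrb4a, Ccl12 and Slc11a1 are also among the 18. Lilrb4a, an inhibitory receptor of myeloid cells, was the gene that rose, at 2.42, 2.44 and 1.66 FPKM in KO and 0.753, 0.390 and 0.472 FPKM in control replicates. With a control mean of 0.538 FPKM, it met the filter of 1 FPKM only through its KO values. Its log2 fold change was 1.04, with an SE of 0.15 (adjusted p = 0.0413 in limma), every KO library was above every control library, and its near-identical neighbour Lilr4b makes the split of reads uncertain. The call was lost without KO replicate 1 or 2 (adjusted p in limma 0.187 and 0.122), without control replicate 1, 2 or 3 (adjusted p in limma 0.0651, 0.236 and 0.254) and with pseudocounts of 0.1 and 0.01 (adjusted p in limma 0.0515 and 0.0587); with the replicate number as a block it was 0.0848. Over the alternatives that tested it, the adjusted p in limma lay between 0.00598 and 0.254.

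All 8 tested genes of the phagocyte oxidase and lysosome list had a fold change above 0, against 40.6% of all tested genes, and 0 passed. All KO values lay above all control values for 6 of them, against 3.27%. The 6 include Slc11a1, with a control mean of 0.816 FPKM, which met the filter only through its KO values. Mpeg1, a pore-forming protein of phagocytes, averaged 4.25 ± 0.499 FPKM in KO and 2.19 ± 0.205 FPKM in control libraries (SD, n = 3 each; limma, adjusted p = 0.0534). Lgmn, a lysosomal protease that many cells make, stood at 29.0, 29.5 and 29.5 FPKM in KO and 23.2, 22.8 and 22.3 FPKM in control replicates (limma, adjusted p = 0.0675). Ctss, the cathepsin of antigen-presenting cells, averaged 8.73 ± 1.66 FPKM in KO and 4.88 ± 0.811 FPKM in control libraries. Among complement genes C3ar1, the receptor for C3a, averaged 2.31 ± 0.311 FPKM in KO and 1.18 ± 0.185 FPKM in control libraries. Of 11 tested genes of all leukocytes 11 lay above 0, against 40.6% of all tested genes, and 0 passed. The 11 include Selplg, with a control mean of 0.993 FPKM, which met the filter only through its KO values. Plek, a substrate of protein kinase C, averaged 1.97 ± 0.0409 FPKM in KO and 1.18 ± 0.12 FPKM in control libraries. The chemokine Ccl12 averaged 2.03 ± 0.401 FPKM in KO and 0.757 ± 0.0795 FPKM in control libraries, so it met the filter only through its KO values. Plac8, a gene of monocytes and other cells, averaged 4.51 ± 1.30 FPKM in KO and 1.64 ± 0.420 FPKM in control libraries. The adjusted p in limma was 0.0901 for Ccl12 and 0.121 for Plac8.

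The median log2 fold change was 0.34 over 7 tested pattern and inhibitory receptors, 0.38 over 5 complement genes and 0.25 over 3 chemokines and receptors. Of these 3, Ccl12 and Ccl9, with control means of 0.757 and 0.86 FPKM, met the filter only through their KO values. The median of 0.25 is the fold change of Ccl9, so it does not describe the list as a whole. Growth factors and receptors had a median of -0.03 over 4 tested genes, and Csf2ra averaged 18 ± 1.09 FPKM in KO and 19.5 ± 1.01 FPKM in control libraries. Myeloid transcription factors had a median of 0.04 over 7, and Irf8, a factor of the monocyte lineage, averaged 2.01 ± 0.494 FPKM in KO and 1.53 ± 0.0988 FPKM in control libraries, without overlap. The kinases and adaptors downstream of Tyrobp and Fcer1g had a median of 0.09 over 5, with Syk at 2.49 ± 0.120 FPKM in KO and 2.27 ± 0.0507 FPKM in control libraries. Markers of resident macrophages and microglia had a median of 0.07 over 6, but Tmem119, at 60.0 ± 9.07 FPKM in KO and 67.7 ± 5.49 FPKM in control libraries, and Stab1 are made by other cells too. Genes for the uptake of dying cells, shared by many cell types, had a median of -0.01 over 7. Class II genes, which present peptides to T cells, had a median of -0.18 over 4, and H2-Ab1 averaged 1.08 ± 0.288 FPKM in KO and 1.51 ± 0.083 FPKM in control libraries, with all KO below all control values. Of the genes in these lists, Lilrb4a alone passed in limma.

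**Figure D4:**
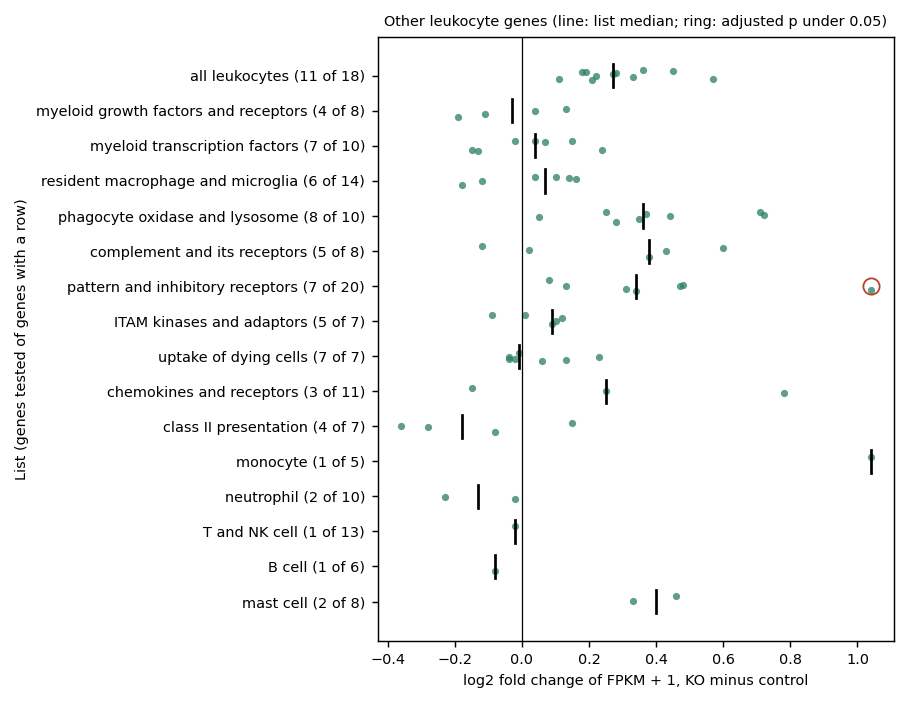
Log2 fold change of FPKM + 1, KO minus control, for each tested gene of 16 further leukocyte lists (point: gene; line: list median; ring: adjusted p under 0.05 in limma). Lilrb4a, at 1.04, carries the ring, and the lists of growth factors, transcription factors and kinases lie around 0.

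Markers of the remaining leukocytes were few. Of 13 genes of T and NK cells 1 was tested, Lck, at 2.86 ± 0.507 FPKM in KO and 2.95 ± 0.685 FPKM in control libraries (SD, n = 3 each), while the defining genes Cd3d and Cd8a were listed at 0 in all libraries. Of 6 B cell genes 1 was tested, Ighm, at 1.92 ± 0.217 FPKM in KO and 2.07 ± 0.151 FPKM in control libraries, and Ms4a1 and Pax5 were listed at 0 throughout. Of 10 further neutrophil genes 2 were tested, Mmp9 and Prtn3, and Ly6g and Ctsg were listed at 0 throughout. Mast cell genes had 2 tested members. Cpa3, a protease of mast cell granules, stood at 2.19, 4.28 and 2.66 FPKM in KO and 1.99, 2.32 and 2.12 FPKM in control replicates, and Cma1, a chymase of the same granules, at 1.52, 2.92 and 2.27 FPKM and 2.00, 1.09 and 0.982 FPKM. Both were highest in KO replicate 2, overlapped between groups and did not pass.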

How the data were processed

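RNA of mouse palatal shelves at E14.5 was sequenced in 3 KO and 3 control libraries. The authors deposited FPKM for 55631 Ensembl gene IDs, a unit taken from the table's name. Per the submitters' processing notes, mm10 was the build and DESeq2 1.5.2 was among the tools. Which aligner, counter and strand setting were used is not given in the sources used here. Depth is unknown, so no counting interval is given. FPKM summed to between 384979 and 424993 per library, and correlations between libraries over tested genes, on the log2 scale, lay between 0.982 and 0.993.

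Symbols and coordinates came from GENCODE M21 on GRCm38 by gene ID, which matched for 50824 IDs. Values were analysed as log2(FPKM + 1), which understates the change of low genes, with limma 3.58.1 under R 4.3.3 (lmFit, eBayes with trend, genotype as the only term). All 14714 genes averaging 1 FPKM or more were fitted together, and two-sided p-values were adjusted by Benjamini-Hochberg at 0.05. The fit was tested on simulated data with 200 changed genes. The members and lists were chosen with earlier results of these data known. All members are named, and of the further leukocyte lists the genes that passed and up to 3 per list with the smallest p, as for lists of other cell types. Genes named only as listed at 0, or only as meeting the filter through their KO values, are additional. Alternatives were other pseudocounts, filters, scalings and variance models, the replicate number as a block, and each library left out.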

Additional observations from a re-analysis of the deposited data

How the results depend on the processing

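The median log2 fold change of the tested members was between 0.36 and 0.47 under other pseudocounts, filters, scalings, variance models and the block, and between 0.32 and 0.53 with each library left out. No member passed in limma under any of these alternatives; the smallest adjusted p was 0.0517, for Adgre1 and Fcgr3 with library weights. Members with all KO above all control values numbered 8 of 13 with a filter at 5 FPKM, where fewer were tested, against 2.19% of all genes tested there, and between 16 and 18 with a library left out, against 4.93% to 9.79%. Across all genes, 24 were higher and 0 lower with a filter at 5 FPKM, 2 were lower with no filter or a filter at 0.1 FPKM, and with a library left out 32 to 48 were higher and 1 to 2 lower. With library weights 66 genes were higher. Of the further leukocyte genes, 0 passed with either other pseudocount, a filter at 5 FPKM or the replicate block. There were 2 with no filter or a filter at 0.1 FPKM, both times Lilrb4a and Ly6c2, named after its values were seen. There were 2 with quantile normalization, 3 without trend, 4 with library weights, and 0 to 1 with a library left out. The cause was not tested. Members that changed sign with a library left out were S100a8, from -0.09 without KO replicate 1 up to 0.31, S100a9, from -0.07 without control replicate 1 up to 0.37, and F13a1, from -0.12 up to 0.03 without control replicate 3. Whether libraries of the 2 groups are paired is not given in the labels. Deviations from the group mean correlated at 0.019, 0.305 and -0.241 across genes for same-numbered libraries. For KO replicate 3 and control replicate 1 they correlated at 0.314. With 3 libraries per group these values cannot decide whether there is a pairing. With the replicate number as a block, 41 genes were higher and 1 lower, and Lilrb4a had an adjusted p of 0.0848. Depth being unknown, genes near 0.1 FPKM allow no statement on absence.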
